A study of Mus musculus with 8 samples.

Results

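Transcripts of 9 genes that make or remove reactive oxygen species were followed in primary cultures of microglia, the macrophages that reside in the mouse brain. Cybb, Cyba, Ncf1 and Ncf4 encode subunits of the phagocyte NADPH oxidase, and Hmox1, Nqo1, Sod2, Gclm and Slc7a11 belong to the antioxidant response. Genes were chosen by symbol, and all 9 were found, with the same identifier in both deposited tables, among the 31406 genes of the table that compares the groups of this series. All 9 passed the low-count filter, as did 18756 genes in all.

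The wild-type cultures grew for 15 days before a 48 h activation with LPS (0.01% v/v) and IFN-γ (0.002% v/v). The ligands were given 3 times, 24, 32 and 40 h into the activation. By their titles, 4 libraries received SCH 58261, an antagonist of the adenosine A2A receptor (A2A antagonist group), and 4 received SCH 58261 with the A3 receptor agonist 2-Cl-IB-MECA at 200 nM (dual group), so that activation and the A2A antagonist were common to all 8 libraries. The treatment field of the labels places 2-Cl-IB-MECA in the opposite group. Titles and column names of the count table gave the same grouping and were used, so the direction of every difference rests on the titles. Libraries of activated cells with vehicle carry no sample of this series and were not analysed here, so the values tell nothing of the effect of SCH 58261 itself. Striatal tissue of neonatal C57/BL6 pups was the source of the cells according to the methods of the study, which checked purity by CD11b labelling, but no label ties a library to a litter, animal or dish, and p-values therefore measure the spread between these libraries only.

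The phagocyte NADPH oxidase moves electrons from NADPH in the cytosol to oxygen and so releases superoxide. Its membrane core is a heterodimer of the products of Cybb and Cyba, and it is switched on when the cytosolic subunits, among them the products of Ncf1 and Ncf4, and a Rac GTPase join it. In microglia this enzyme is known as a main source of superoxide upon inflammatory activation. The antioxidant response is governed to a large part by the transcription factor Nrf2, which is held back by Keap1 and which drives Hmox1, Nqo1, Gclm and Slc7a11, whereas Sod2 is best known as a target of NF-κB.

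Total counts ranged from 32630602 to 45878639 per library, and dual replicates 1 and 2 (32630602 and 38043053) were shallower than dual replicates 3 and 4 (45544451 and 44185652). The cell type was checked against marker genes. All 10 microglia markers were detected, with a summed level of 1146 to 1218 CPM (counts scaled to a common library total with TMM factors) in the A2A antagonist group and 1093 to 1173 CPM in the dual group. The 8 astrocyte markers summed to 6087 to 6376 CPM and 6189 to 6624 CPM, and the 6 fibroblast markers to 2379 to 2652 CPM and 2369 to 2986 CPM. Levels per length varied widely within each list. For astrocytes the mean FPKM (the deposited level per gene length) ran from 4.36 (S100b) to 389.8 (Gfap, the intermediate filament of astrocytes). For microglia it ran from 0.715 (P2ry12) to 419.6 (C1qa), with 35.6 for Aif1 and 25.1 for Itgam, which encodes CD11b. The cultures thus held abundant transcripts of astrocytes and fibroblasts beside those of microglia, and which cells carried each of the 9 transcripts was not tested. Of the 7 neutrophil and monocyte markers, Ly6g, S100a9, Mpo and Elane were not analysed here, S100a8 was tested, and Ly6c2 and Ccr2 had at most 6 and 7 counts in a library. Neutrophils and monocytes are known to express the oxidase genes strongly, and the summed level of their 3 listed markers was 2.02 to 2.78 CPM with the antagonist and 2.65 to 3.65 CPM with both ligands. In bulk samples fewer cells of a type and less RNA per cell cannot be told apart.

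All 9 genes were well expressed, over a wide range. Hmox1, which encodes the inducible heme oxygenase that opens the heme ring, was the most abundant per length, with a mean FPKM of 243 over the 8 libraries (range 227 to 268). Sod2, the manganese superoxide dismutase of mitochondria, followed with 114 (104 to 120.3). The membrane core of the oxidase came next. Cybb, the catalytic subunit, had 89.7 FPKM (84.8 to 97.6) and Cyba, its stabilising partner, 75.4 FPKM (72.3 to 78.9). The organising subunit gene Ncf1 had 41.3 FPKM (38.2 to 44.1), and Slc7a11, the cystine importer that feeds glutathione synthesis, had 33.3 FPKM (28.6 to 39.3). Ncf4, a regulatory subunit that binds membrane lipid, had 21.1 FPKM (19.9 to 23.0), Gclm, the modifier subunit of the enzyme that limits glutathione synthesis, 18.1 FPKM (16.6 to 19.8), and Nqo1, a quinone reductase, 6.30 FPKM (5.36 to 7.26). The ranges of neighbours in this order did not overlap, with the exception of those of Ncf1 and Slc7a11, which overlapped through dual replicates 3 and 4, the libraries with the highest Slc7a11. The order was the same when levels were computed as TPM.

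**Figure D1:**
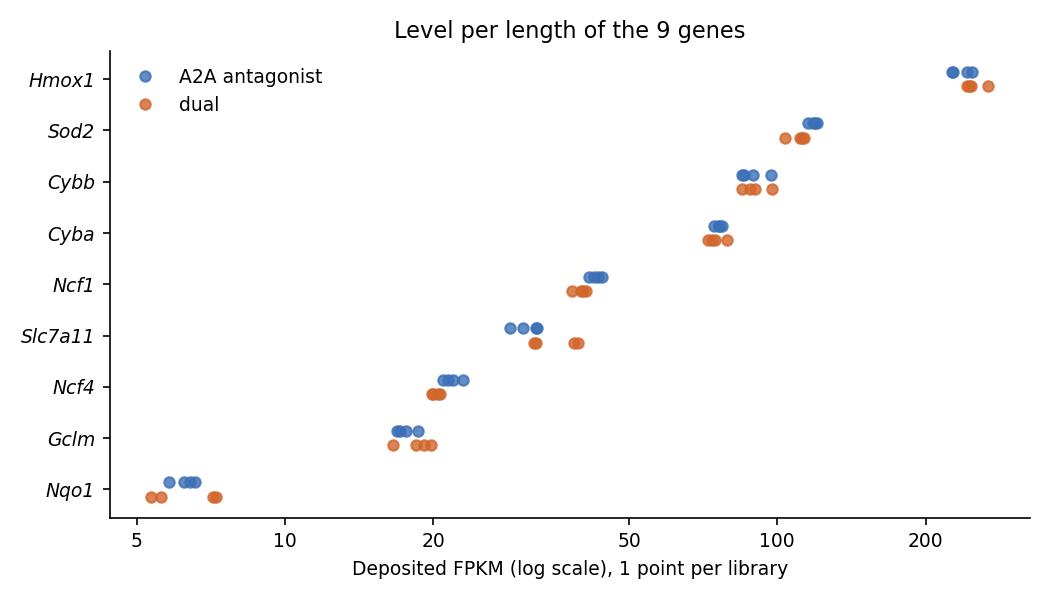
Deposited FPKM (log scale) of the 9 genes, ordered by their mean, with 1 point for each of the 4 A2A antagonist and 4 dual libraries. Hmox1 lies highest, at 227 to 268 FPKM, and Nqo1 lowest, at 5.36 to 7.26 FPKM.

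Ratios were taken between genes whose products work together or are induced together. The ratio of Cybb to Cyba in FPKM was 1.18 ± 0.0590 (SD, n = 4) with the A2A antagonist and 1.21 ± 0.113 (SD, n = 4) with both ligands (two-sided exact permutation test, p = 0.629). For Ncf1 over Ncf4 it was 1.96 ± 0.0281 and 1.97 ± 0.0783 (SD, n = 4; exact permutation test, p = 0.914). For Slc7a11 over Gclm the ratios were 1.76 ± 0.0662 and 1.92 ± 0.133 (SD, n = 4; exact permutation test, p = 0.0857), and for Hmox1 over Nqo1 they were 37.8 ± 2.22 and 40.1 ± 5.38 (SD, n = 4; exact permutation test, p = 0.457). None of these 4 ratios differed between the groups beyond the spread of the libraries (smallest p adjusted over the 4, 0.343, exact permutation test).

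Dual and A2A antagonist libraries were compared to ask what adding the A3 agonist did to these transcripts. None of the 9 genes was called at an adjusted p-value under 0.05 in edgeR, where 39 of 18756 genes (0.208%) were called, 0.048% of all genes on the higher side and 0.16% on the lower side, and 0.00533% were called with a fold above 1.5. The count over all genes was unstable: it was 0 without A2A antagonist replicate 4 or dual replicate 3, 5 and 6 without A2A antagonist replicates 2 and 3, and 172 without A2A antagonist replicate 1, while none of the 9 was called in any of these fits. An unadjusted p-value under 0.05 was reached by 5 of the 9, beside 12.8% of all genes tested: Slc7a11 and Hmox1 on the higher side in the dual group, and Sod2, Ncf1 and Ncf4 on the lower side. The DESeq2 Wald test called 1 of the 8 members for which it gave an adjusted p-value (Sod2), beside 4.7% of all genes. The 9 log2 fold changes ran from -0.11 to 0.20, with a median of 0.02, and the median over all genes tested was 0.0038. No 95% interval reached the 1.5-fold threshold of the study: the lowest bound was -12.5% and the highest 25.3% relative to the A2A antagonist group.

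**Figure D2:**
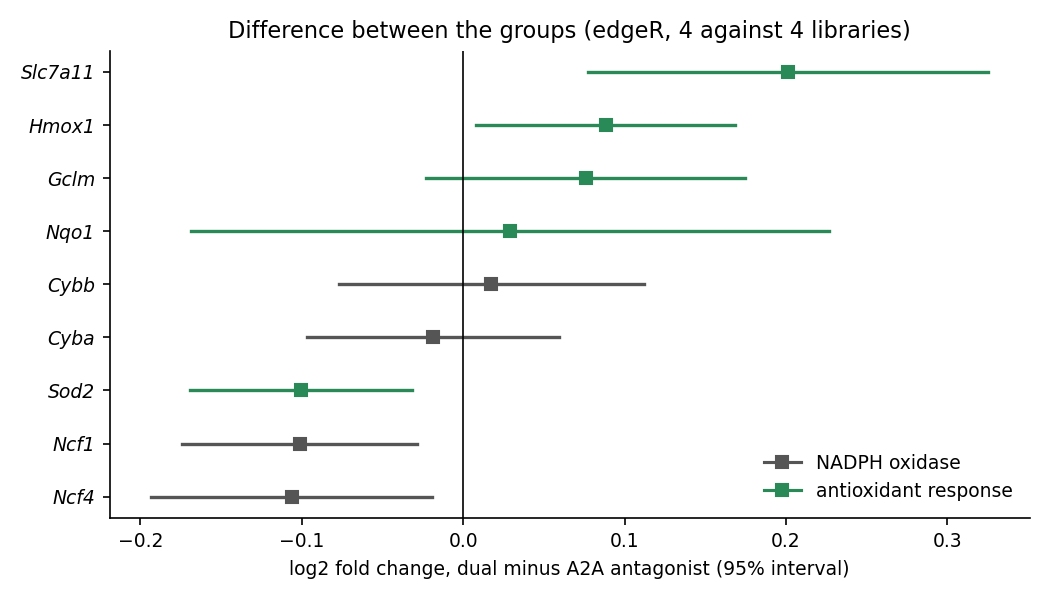
Log2 fold change (dual minus A2A antagonist) of each of the 9 genes from edgeR, with the bar as the 95% interval. The intervals of Slc7a11 and Hmox1 lie above 0 and those of Sod2, Ncf1 and Ncf4 below 0, none of them with an adjusted p-value under 0.05.

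Of the oxidase genes, those of the membrane core overlapped between the groups and those of the cytosolic subunits did not. The difference between these pairs was not tested. Cybb (ENSMUSG00000015340, chromosome X, 9435252 to 9487771) had 498, 499.9, 566 and 523 CPM in A2A antagonist replicates 1 to 4 and 496, 517, 527 and 572 CPM in the dual replicates. The groups covered the same range. Its log2 fold change was 0.02 (95% interval -0.08 to 0.11, edgeR adjusted p = 0.919). Cyba (ENSMUSG00000006519, chromosome 8, 122424776 to 122432930) had 77.9, 79.6, 80.6 and 79.6 CPM with the antagonist and 82.7, 77.3, 77.9 and 75.8 CPM with both ligands. Here dual replicate 1 was the highest of the 8 libraries and dual replicate 4 the lowest. The log2 fold change of Cyba was -0.02 (95% interval -0.10 to 0.06, edgeR adjusted p = 0.885). As percentages the intervals ran from -5.20 to 8.07% for Cybb and from -6.50 to 4.21% for Cyba.

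Ncf1 (ENSMUSG00000015950, chromosome 5, 134220053 to 134229625), whose product p47phox carries the signal for assembly, had 157, 153, 162 and 159 CPM in the A2A antagonist libraries. In the dual libraries it had 149, 148, 141 and 151 CPM. All 4 dual libraries were below all 4 A2A antagonist libraries. The means were 158 ± 4.07 and 147 ± 4.49 CPM (SD, n = 4), which is a difference of -6.79% (log2 fold change -0.10, 95% interval -0.17 to -0.03). The edgeR adjusted p-value was 0.205, with p = 0.0286 in the exact permutation test, the smallest that 4 against 4 libraries can give. Exons of Ncf1 share 408 of 3663 bases with Gtf2ird2 on the opposite strand, so its count is uncertain to that extent.

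Ncf4 (ENSMUSG00000071715, chromosome 15, 78244801 to 78262580), which encodes p40phox, had 43.8, 42.5, 46.7 and 44.7 CPM with the antagonist. With both ligands it had 40.8, 40.6, 41.9 and 41.7 CPM. The groups again did not overlap, with A2A antagonist replicate 2 (42.5 CPM) and dual replicate 3 (41.9 CPM) closest to each other. The means were 44.4 ± 1.75 and 41.3 ± 0.645 CPM (SD, n = 4). On the log2 scale the difference was -0.11 (SE 0.04), with an adjusted p of 0.276 in edgeR. The exact permutation test gave p = 0.0286. Without the TMM factors the permutation p of Ncf4 was 0.0571.

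Beside these values, the microglia markers went both ways. C1qa, a complement subunit, fell by 0.24 on the log2 scale (SE 0.04, edgeR adjusted p = 0.0240). This call was lost when dual replicate 3 or any of A2A antagonist replicates 2, 3 and 4 was left out (log2 fold change -0.25 to -0.22, edgeR adjusted p = 0.0648 to 0.0932). Fcrls and Aif1 had log2 fold changes of -0.33 and -0.21 (adjusted p = 0.0952 and 0.110), and Csf1r had 0.11 (adjusted p = 0.171). The median over the 10 was 0.02, with 5 higher and 5 lower. Their summed level was 1146 to 1218 CPM with the antagonist and 1093 to 1173 CPM with both ligands (exact permutation test, unadjusted p = 0.0571). The part of the share or state of microglia in the values of Ncf1 and Ncf4 was not tested.

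Sod2 (ENSMUSG00000006818, chromosome 17, 13006846 to 13040063), which turns superoxide into hydrogen peroxide in mitochondria, gave the third pair of groups without overlap. It had 1166, 1190.0, 1211 and 1201 CPM in the A2A antagonist libraries. In the dual libraries it had 1048, 1136, 1118 and 1146 CPM. Dual replicate 1 was the lowest, and the highest dual library was still below the lowest A2A antagonist library. The means were 1192 ± 19.2 and 1112 ± 44.4 CPM (SD, n = 4), a difference of -6.73% (log2 fold change -0.10, SE 0.03) with an edgeR adjusted p-value of 0.189 and an exact permutation p = 0.0286. The DESeq2 Wald test, with an adjusted p-value of 0.0349, called it. The count of Sod2 is uncertain where it shares sequence with other annotated genes (26.7% of its 31-base words). Groups without overlap on the lower side were thus seen for 3 of the 9 genes, beside 4.06% of all genes tested, and on the higher side for 0 of the 9, beside 3.36% (7.42% in either direction).

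**Figure D3:**
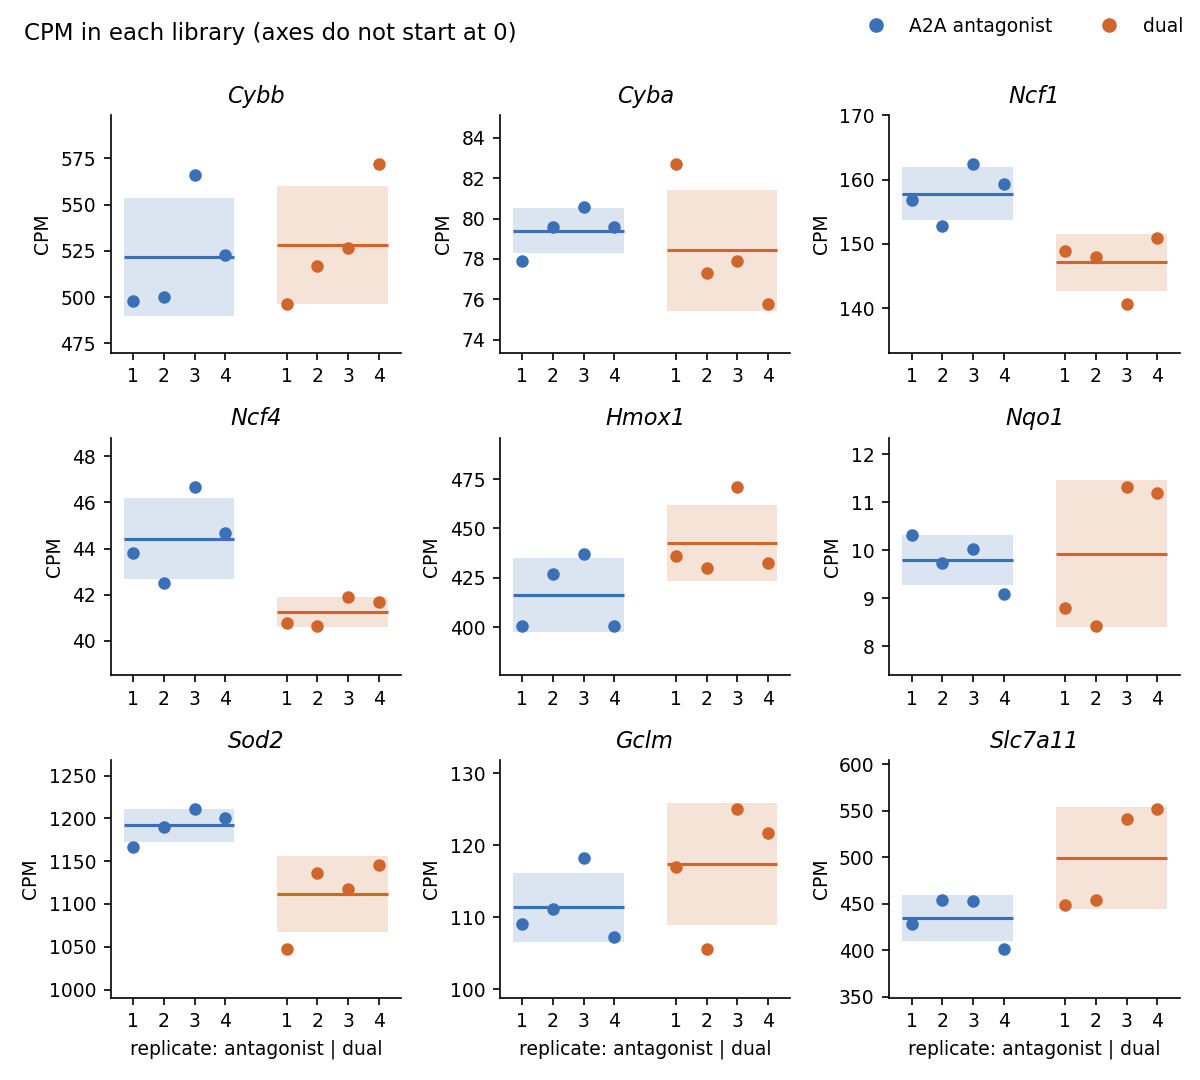
CPM of each of the 9 genes in A2A antagonist replicates 1 to 4 (blue) and dual replicates 1 to 4 (orange), with the group mean as a line and 1 SD to each side as a band; axes do not start at 0. Ncf1, Ncf4 and Sod2 show no overlap between the groups, and dual replicates 3 and 4 lie above dual replicates 1 and 2 for Slc7a11, Nqo1 and Gclm.

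Slc7a11 (ENSMUSG00000027737, chromosome 3, 49892526 to 50443614, minus strand) had the largest log2 fold change of the 9 in size. Its level was 429, 454, 453 and 401 CPM in the A2A antagonist libraries. In the dual libraries it was 449, 454, 541 and 552 CPM. Dual replicates 1 and 2 lay within the range of the A2A antagonist group or at its upper edge, and dual replicates 3 and 4 lay above it. The means were 434 ± 24.9 and 499 ± 55.0 CPM (SD, n = 4), a difference of 15.0% (95% interval 5.53 to 25.3%). On the log2 scale it was 0.20 (SE 0.06), and the edgeR adjusted p-value was 0.145. The exact permutation test gave p = 0.114. Without dual replicate 3 or dual replicate 4 the log2 fold change was 0.16 or 0.15 (edgeR adjusted p = 0.343 and 0.282). With no low-count filter Slc7a11 was called (edgeR adjusted p = 0.00346), in a fit that called 366 of 31406 genes.

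Because Slc7a11 and Gclm are both known targets of stress-driven transcription, the 250 bases before their start sites are shown, read from RefSeq's promoter table (GRCm38.p6), which held 7 of the 9 genes. Ncf4 and Hmox1 were not among them. The capitals mark the core of the amino acid response element (TGATGCAA, the site read by ATF4 with C/EBP partners) in Slc7a11 and the core of the antioxidant response element (TGACNNNGC, the site read by Nrf2 with small Maf partners) in Gclm, each searched on both strands. The windows are chr3:50443614-50443863, minus strand, for Slc7a11 and chr3:122245307-122245556, plus strand, for Gclm.
Slc7a11: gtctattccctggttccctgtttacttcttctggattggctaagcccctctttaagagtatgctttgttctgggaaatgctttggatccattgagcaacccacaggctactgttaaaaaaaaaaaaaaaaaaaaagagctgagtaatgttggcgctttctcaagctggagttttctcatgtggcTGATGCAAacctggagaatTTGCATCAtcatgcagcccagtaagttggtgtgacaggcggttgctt
Gclm: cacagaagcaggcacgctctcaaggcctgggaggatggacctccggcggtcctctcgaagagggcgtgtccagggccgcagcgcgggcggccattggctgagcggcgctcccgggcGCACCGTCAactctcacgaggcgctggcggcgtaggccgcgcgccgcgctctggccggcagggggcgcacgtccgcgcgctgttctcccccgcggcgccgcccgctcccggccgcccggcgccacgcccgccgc
The Slc7a11 window held the amino acid response core in both orientations, with the first base of the matches 66 and 47 bases before the start. Of 32851 promoter windows of this length 0.791% held this core at all, and 2 held it at least 2 times. The Gclm window held the antioxidant response core on its minus strand, first base 134 bases before the start, as did 10.2% of all windows for either strand. In none of the windows of Cybb, Cyba, Ncf1, Nqo1 and Sod2 was either core found, which says only that these letters are not in this stretch. A match is a description of the letters and not a measure of binding.

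Gclm (ENSMUSG00000028124, chromosome 3, 122245557 to 122270732), which shares the use of cystine with Slc7a11, had 109, 111, 118 and 107 CPM with the antagonist. With both ligands it had 117, 106, 125 and 122 CPM. Dual replicate 2 was the lowest and dual replicate 3 the highest of the 8 libraries. The log2 fold change was 0.08 (95% interval -0.02 to 0.17) with an edgeR adjusted p-value of 0.531. Exons of Gclm share 296 of 6291 bases with Gm17494 on the opposite strand and 244 with Gm6061 on the same strand.

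Hmox1 (ENSMUSG00000005413, chromosome 8, 75093621 to 75100589) had 400.5, 427, 437 and 400.3 CPM in the A2A antagonist libraries. In the dual libraries it had 436, 430.2, 471 and 432 CPM. All dual libraries exceeded the A2A antagonist mean, but A2A antagonist replicate 3 exceeded 3 of them, and dual replicate 3 stood apart as the highest. The means were 416 ± 18.6 and 442 ± 19.3 CPM (SD, n = 4). Their log2 difference was 0.09 (95% interval 0.01 to 0.17), with an edgeR adjusted p-value of 0.335. Without dual replicate 3 the log2 fold change was 0.05.

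Nqo1 (ENSMUSG00000003849, chromosome 8, 107388225 to 107403206) had 10.3, 9.74, 10.03 and 9.09 CPM with the antagonist. With both ligands it had 8.80, 8.41, 11.3 and 11.2 CPM. Dual replicates 1 and 2 were below and dual replicates 3 and 4 above all A2A antagonist libraries, so that the coefficient of variation was 15.5% in the dual group and 5.36% in the A2A antagonist group, the widest spread of the 9 genes in the dual group. The log2 fold change was 0.03 (95% interval -0.17 to 0.23) with an edgeR adjusted p-value of 0.936.

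Dual replicates 3 and 4 were thus the highest 2 libraries for Slc7a11, Gclm and Nqo1. These were also the 2 deepest libraries of the dual group, and the part of depth in these values was not tested. Of the 36 pairs of the 9 genes, 7 had an unadjusted p-value under 0.05 for Pearson's r of log2 CPM over the 8 libraries. For Gclm and Slc7a11, r was 0.81 (exact permutation p = 0.0122, adjusted over the 36 pairs 0.162) and Spearman's rho 0.55 (exact permutation p = 0.171, adjusted 0.599), with r = 0.84 without the 2 libraries farthest from the median of Gclm. For Ncf1 and Ncf4, r was 0.82 (exact permutation p = 0.0126, adjusted 0.162) and rho 0.86 (exact permutation p = 0.0107, adjusted 0.129), with r = 0.997 without the 2 farthest libraries. No pair passed the adjustment (smallest values 0.162 for r and 0.129 for rho, exact permutation tests). After subtraction of the group means, r was 0.92 for Nqo1 and Slc7a11, 0.77 for Gclm and Slc7a11 and 0.45 for Ncf1 and Ncf4.

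The gene with the profile most like each member over the 8 libraries was found by the highest Pearson's r among 11061 other genes whose log2 CPM averaged 3 or more. As the highest of so many values, r is given as a description only. These genes were Ift74 for Cybb (r = 0.98), Ppp1r15a for Cyba (0.98), Epsti1 for Ncf1 (0.98), Ppie for Ncf4 (0.99), Rdh11 for Hmox1 (0.94), Tnfrsf19 for Nqo1 (0.96), Echdc1 for Sod2 (0.97), Slc4a10 for Gclm (0.96) and Atad2b for Slc7a11 (0.99). None of these 9 genes in first place was in the pathway lists. In second place for Ncf1 was Cybc1 (r = 0.97), named here because it is in the list of other oxidase genes.

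The other genes of the pathway were read from 6 lists of 78 genes, of which 71 were tested. None of the 71 was called by edgeR at an adjusted p-value under 0.05. An unadjusted p-value under 0.05 was reached by 15 (4 higher and 11 lower in the dual group), 21.1% of the list beside 12.8% of all genes. The DESeq2 Wald test called 3 (Gpx4 and Rac2 lower, Gpx3 higher) of 57 with an adjusted p-value, beside 4.7% of all genes. Groups did not overlap for 1 gene of the 71 on the higher side, beside 3.36% of all genes, and for 5 on the lower side, beside 4.06%.

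Of the 13 other oxidase genes in the table, 7 were tested, 4 higher and 3 lower (median log2 fold change 0.01). Rac2, the hematopoietic Rac GTPase, which completes the active enzyme, was the most abundant of them (73.1 FPKM). It had 216, 246, 248 and 251 CPM with the antagonist and 203, 217, 226 and 220.3 CPM with both ligands. Only A2A antagonist replicate 1 overlapped the dual group, and the log2 fold change was -0.15 (SE 0.05, edgeR adjusted p = 0.157). Without that library Rac2 was called (edgeR adjusted p = 0.0204), in a fit that called 172 genes over all genes. No other fit that left out 1 library called Rac2. Hvcn1, the proton channel that offsets the charge moved by the oxidase, had a log2 fold change of 0.28 (SE 0.09, edgeR adjusted p = 0.192), and 1574 of its 3563 exonic bases overlap Tctn1 on the opposite strand. The catalytic subunits of other oxidases were scarce: Nox4 had 0.363 FPKM, and Nox1, Duox1 and Duox2 had at most 12, 6 and 6 counts in a library and were not tested.

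The 10 regulators of Nrf2 were 5 higher and 5 lower (median log2 fold change -0.0019), and 0 of them had an unadjusted p-value under 0.05. Sqstm1, an autophagy adaptor that binds Keap1, was the most abundant (191 FPKM). Its log2 fold change was -0.06 (SE 0.03, edgeR adjusted p = 0.471). Nfe2l2, which encodes Nrf2 and is named for its role, had 91.1 FPKM and a log2 fold change of 0.00 (SE 0.03, edgeR adjusted p = 0.999).

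Of the 17 glutathione genes 4 were higher and 13 lower (median log2 fold change -0.04). The most abundant was Gstm1, a glutathione transferase (222 FPKM), with a log2 fold change of -0.09 (SE 0.05, edgeR adjusted p = 0.449). Gclc, the catalytic partner of Gclm and named for that, had 37.7 FPKM and a log2 fold change of 0.03 (SE 0.04, edgeR adjusted p = 0.794).

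Among the 20 thioredoxin and peroxidase genes 5 were higher and 15 lower (median log2 fold change -0.08). An unadjusted p-value under 0.05 was reached by 2 on the higher side and 7 on the lower side. Of all 18756 genes tested, 1122 reached it on the higher side and 1278 on the lower side (12.8% in either direction). Prdx5, a peroxiredoxin, was the most abundant (250.8 FPKM), with a log2 fold change of -0.10 (SE 0.03, edgeR adjusted p = 0.220). Srxn1, which repairs oxidised peroxiredoxins and is a known Nrf2 target, had 104, 106, 104 and 98.4 CPM with the antagonist and 107, 111, 122 and 112 CPM with both ligands. These groups did not overlap, and the log2 fold change was 0.13 (SE 0.04, edgeR adjusted p = 0.165). Gpx4, which reduces lipid peroxides, had 296, 309, 295 and 304 CPM against 285, 283, 285 and 270.3 CPM, likewise without overlap, and a log2 fold change of -0.10 (SE 0.03, edgeR adjusted p = 0.184). Gpx3, a secreted peroxidase, had a log2 fold change of 0.17 (SE 0.05, edgeR adjusted p = 0.140).

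Of the 7 heme and ferritin genes 2 were higher and 5 lower, with a median of -0.05. Fth1, the ferritin heavy chain that stores iron, was by far the most abundant of all genes in these lists (10634 FPKM), with 9626 ± 568 CPM against 8928 ± 119 CPM (SD, n = 4) and a log2 fold change of -0.11 (SE 0.04, edgeR adjusted p = 0.196). A2A antagonist replicate 1, with 8837 CPM, lay within the dual group. Without it Fth1 was called (edgeR adjusted p = 0.0207), in the same fit that called 172 genes over all genes. No other fit that left out 1 library called Fth1. The 10 genes of NADPH supply were 5 higher and 5 lower, with a median of 0.0050. Taldo1 of the pentose phosphate pathway was the most abundant (80.6 FPKM, log2 fold change -0.05, edgeR adjusted p = 0.623), and Osgin1, a known Nrf2 target, had the smallest p-value, with a log2 fold change of 0.30 (SE 0.09, edgeR adjusted p = 0.173).

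**Figure D4:**
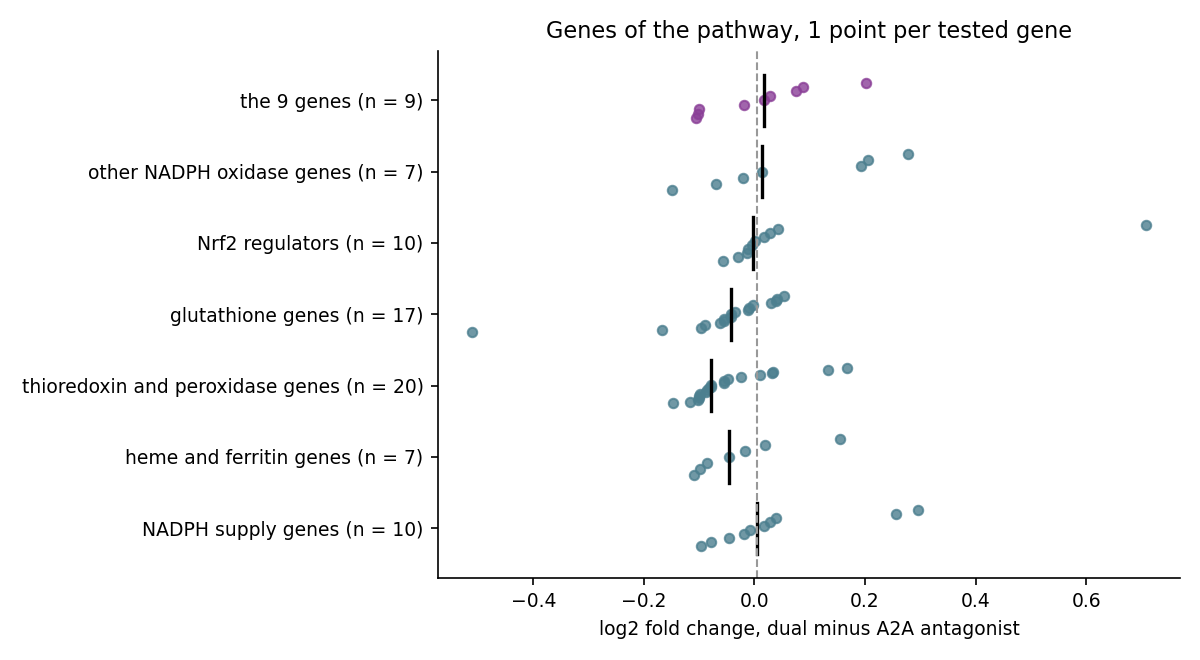
Log2 fold change (dual minus A2A antagonist) of each tested gene, in rows by list; black bars mark the median of a list and the dashed line the median of all genes tested (0.0038). The thioredoxin and peroxidase genes have the lowest median (-0.08), the points farthest from 0 are Nfe2 (0.71, at most 20 counts in a library) and Ggt1 (-0.51, at most 67 counts), and none of the 80 points belongs to a gene called at an adjusted p-value under 0.05.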

How the data were processed

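RNA was measured by sequencing in 8 libraries. The authors aligned paired-end reads to a mouse genome with HISAT2 (mm10 in the submitters' processing notes) and counted reads per gene with featureCounts 1.5.0-p3. Whether the strand was used was not stated, so genes that overlap on either strand share reads. The deposited counts are raw counts per gene. The deposited FPKM were made by the authors from the counts, gene length and a library total, 0.996 to 1.01 times the summed counts. Columns of the authors' own comparisons (fold change, p-value, adjusted p-value) were not used. The 9 columns of libraries outside this series were not used either.

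Groups followed the titles. The test was the quasi-likelihood F test of edgeR 4.0.16 (R 4.3.3; filterByExpr with a minimum count of 10, TMM factors, no covariates), with two-sided p-values adjusted over the 18756 genes tested by the Benjamini-Hochberg procedure. Intervals come from the F statistics. The common biological coefficient of variation was 5.28%. On simulated data the fit recovered 58.6% of genes changed by 0.5 and 91.8% of those changed by 1 on the log2 scale, with 9 false calls. Changes as small as those of the 9 genes were not simulated, so these rates do not cover them. Single values were compared by a two-sided exact permutation test over 70 arrangements (smallest p 0.0286), unadjusted. No 2 libraries of a group were copies (chi-square per degree of freedom 3.80 to 9.43 between them). Coordinates are those of the files (30585 of 31389 genes, 97.4%, match GENCODE mouse release 21, GRCm38).

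The 9 genes and the lists were chosen with earlier results of these data known. Named pathway genes are those with an unadjusted p-value under 0.01, the most abundant of each list, and the gene most alike to each member; exceptions are stated. DESeq2 1.42.0, other scaling factors, no filter, a replicate block and leaving out each library were tried as alternatives.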

Additional observations from a re-analysis of the deposited data

Results flagged for a closer look

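Hmox1 in the dual group had 1 library far from the others. Dual replicate 3 had 471 CPM and dual replicates 1, 2 and 4 had 430.2 to 436 CPM, so that the gap to the nearest library took 0.858 of the range of the group, above Dixon's 95% critical value for 4 libraries. Of 18 groups of values examined (9 genes in 2 groups) it was the one past this value, and chance gives about 1 in 20.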

How the results depend on the processing

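Of the 13 alternatives run for each of the 9 genes, none changed the sign of Cyba, Ncf1, Ncf4, Hmox1, Sod2, Gclm or Slc7a11, and 6 values changed sign. Cybb had a log2 fold change of -0.0056 without A2A antagonist replicate 1, -0.0029 without A2A antagonist replicate 2 and -0.023 without dual replicate 4 (range -0.023 to 0.058 when 1 library was left out). Nqo1 had -0.0061 without A2A antagonist replicate 4, -0.045 without dual replicate 3 and -0.033 without dual replicate 4 (range -0.045 to 0.10). The number of the 9 genes called was 0 in edgeR, 1 by the DESeq2 Wald test (Sod2) and 1 without the low-count filter (Slc7a11), and it was 0 in each of the 8 fits that left out 1 library. Of the other pathway genes 0 were called, against 3 by DESeq2 and 3 without the filter (Gpx3, Rac2 and Fth1), and 0 to 2 when 1 library was left out. Over all genes 39 of 18756 were called, against 417 of 8877 by DESeq2 and 366 of 31406 without the filter. When 1 library was left out, 0 to 172 were called. The cause was not tested. Libraries of the same replicate number did not deviate together (correlations -0.05 to 0.04), so the numbers pair nothing; with the replicate block 17 genes were called over all genes and 0 of the 9. The 95% intervals of the members give the differences that these libraries leave possible, from -11.0 to 17.0% for Nqo1, the least abundant member; they are not detection limits.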
